A study of Mus musculus with 26 samples.

Results

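The respiratory chain genes of the nuclear and the mitochondrial genome were measured in single thalamic neurons of the mouse that had been labelled backwards from 1 of 5 cortical systems. Members were taken by gene name from the deposited count table: the Nduf, Sdh, Uqcr, Cyc1, Cox and Atp5 subunit names and the mt-Nd, mt-Co, mt-Cytb and mt-Atp names. The rule took 89 of 36589 gene columns, of which 80 are nuclear genes and 9 are mt- genes. Of the nuclear members, 35 belong to complex I, 4 to complex II, 9 to complex III, 15 to complex IV (Ndufa4 among them) and 15 to complex V. The other 2, Atp5s and Atp5sl, carry an Atp5 name but are not subunits of the ATP synthase and were kept apart. mt-Co2, mt-Co3, mt-Atp8 and mt-Nd4l were not analysed here.

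The respiratory chain sits in the inner mitochondrial membrane, where complexes I and II feed in electrons from NADH and succinate, complex III passes them on to cytochrome c and complex IV hands them to oxygen. Complexes I, III and IV pump protons, and complex V, the ATP synthase, uses the proton gradient to make ATP. Most subunits are encoded in the nucleus, while the mitochondrial genome supplies core subunits of every complex except II, so each assembled complex of mixed origin needs transcripts of both genomes. Neurons spend much of their ATP on ion pumping after action potentials and synaptic currents.

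Neurons of male mice were collected from thalamic tissue as fluorescent cells picked by hand, after slicing and protease digestion in the presence of blockers of activity, and were read as 3' ends with unique molecular identifiers (UMIs), the tags that let amplified copies of 1 molecule be counted once. The cell table gives the 5 systems as Auditory, Motor, Prefrontal, Somatosensory and Visual, under 20 animal identifiers whose age was written as 64 to 112, with no unit in the header, and no source used here names their strain or the tracer. Counts were added up for each animal within a system, giving 5 auditory sums (380 cells), 5 motor (484), 4 prefrontal (388), 3 somatosensory (285) and 4 visual (435), 1972 cells in all. The sums held 4317156 to 20322775 UMIs, and p-values measure only the spread between these animals; 1 identifier gave both auditory replicate 5 and visual replicate 1, with different ages (70 and 91) and sort dates. These were kept apart, and each sum is called an animal below. The table also gives the authors' clusters within each system (Aud_1, Mot_1 and so on) and 9 joint clusters across systems.

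All 26 plates used 1 set of wells' cell barcodes, so 372 of the 375 distinct barcodes occurred on 2 or more plates, and cells were told apart by plate and barcode together. The 7 neuron markers (Slc17a6 and Tcf7l2 of the thalamic relay cell among them) summed to 7126 to 9871 CPM (a gene's UMIs scaled to a common total of all gene UMIs) and none was at 0 in any system. Astrocyte markers summed to 285 to 917 CPM, oligodendrocyte markers to 25 to 463 CPM, microglia markers to 118 to 190 CPM and endothelial and mural markers to at most 13.4 CPM. All levels below are in CPM, and 1 transcript gives 1 tag, so levels were not divided by length. In summed counts, fewer cells of a type and less RNA per cell cannot be told apart.

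The plates were sequenced in 3 batches, and the batch moved with the level of many members, so it is given before the comparisons. Somatosensory neurons were only in batch 2 and visual neurons only in batch 3, while auditory, motor and prefrontal neurons were in all 3. Batch 1 was the deepest, with a median of 151575 UMIs per cell against 87796 in batch 2 and 69178 in batch 3. The summed nuclear members ran from 16568 to 27902 CPM in batch 1, from 22973 to 33807 in batch 2 and from 29757 to 38186 in batch 3. Within auditory, motor and prefrontal neurons, 60 of the 78 tested nuclear members were lower in batch 1 than later in all 3 systems and 5 were higher in all 3. Their median log2 difference (CPM + 1) was -0.67, beside -0.03 for all genes tested. The matching counts for all genes are given by length below. Within these 3 systems the batch 1 animals were also the older ones, by the age in the cell table. Ages were 104 in batch 1 and 70 or 81 later for auditory animals. They were 112 and 69 or 71 for motor animals and 91 and 70 or 77 for prefrontal animals. Batch 1 and age therefore cannot be told apart in this difference.

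The batch difference varied with the length of the transcript. Nuclear members with an annotated transcript of under 700 bases had a median of -0.88, and 29 of 30 were lower in batch 1 in all 3 systems. The median was -0.54 from 700 to under 1200 bases (22 members), -0.10 from 1200 to under 2000 bases (18) and -0.11 from 2000 bases up (7); for all genes tested it was -0.47 in the shortest class and -0.01 in the longest. Of all genes tested in the shortest class, 665 of 1245 were lower in batch 1 in all 3 systems. In the longer classes 509 of 1576, 531 of 2882 and 2245 of 10972 were, beside 16 of 22, 9 of 18 and 5 of 7 members. Atp5k, a small subunit of the ATP synthase membrane part (371 bases), differed by -1.47, and Cox7c (540 bases) and Cox8a (550 bases), small complex IV subunits, by -1.31 and -1.28. Atp5b, the catalytic beta subunit of the ATP synthase (1916 bases), and Sdha, the flavoprotein of complex II (2900 bases), differed by -0.00 and -0.11. Uqcrc1, a core protein of complex III (1653 bases), was higher in batch 1 in each of the 3 systems, with a median of 0.93. The fits between systems hold a batch term, and values within batches are given beside the results on systems and joint clusters.

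**Figure D1:**
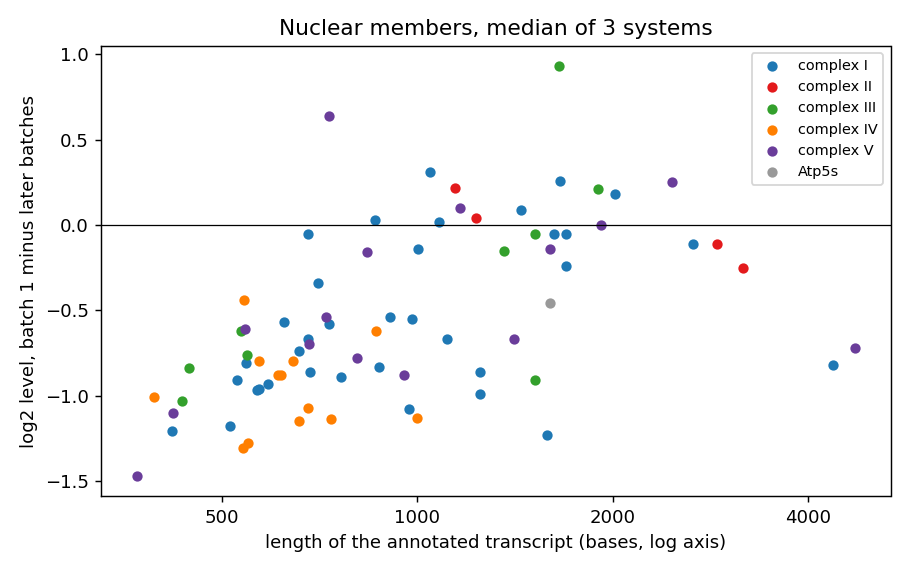
Difference between batch 1 and the later batches for each nuclear member with a length. The horizontal axis is the length of the annotated transcript in bases on a log axis, the vertical axis the log2 difference (median of the auditory, motor and prefrontal values), and colour gives the complex; members of under 700 bases have a median of -0.88 and those of 2000 bases or more -0.11.

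Nuclear respiratory chain transcripts were lowest in neurons labelled from auditory cortex. The 80 nuclear members summed to 20519, 16568, 23711, 22973 and 29757 CPM in the 5 auditory animals. They summed to 23568, 27902, 33098, 38186 and 27218 CPM in motor animals. Prefrontal animals had 22774, 20147, 27896 and 32346, somatosensory animals 33239, 33807 and 32424 and visual animals 34948, 34221, 33101 and 32150 CPM. Auditory, motor and prefrontal values overlap over the whole series, and all 7 somatosensory and visual sums lie above all 5 auditory ones. The means were 22706 ± 4828 CPM in auditory (SD, n = 5), 29994 ± 5704 in motor (n = 5), 25791 ± 5427 in prefrontal (n = 4), 33157 ± 695 in somatosensory (n = 3) and 33605 ± 1232 in visual neurons (n = 4). Auditory neurons had the lowest mean for 65 of the 78 tested nuclear members; visual neurons had the highest for 45 and somatosensory neurons for 24.

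**Figure D2:**
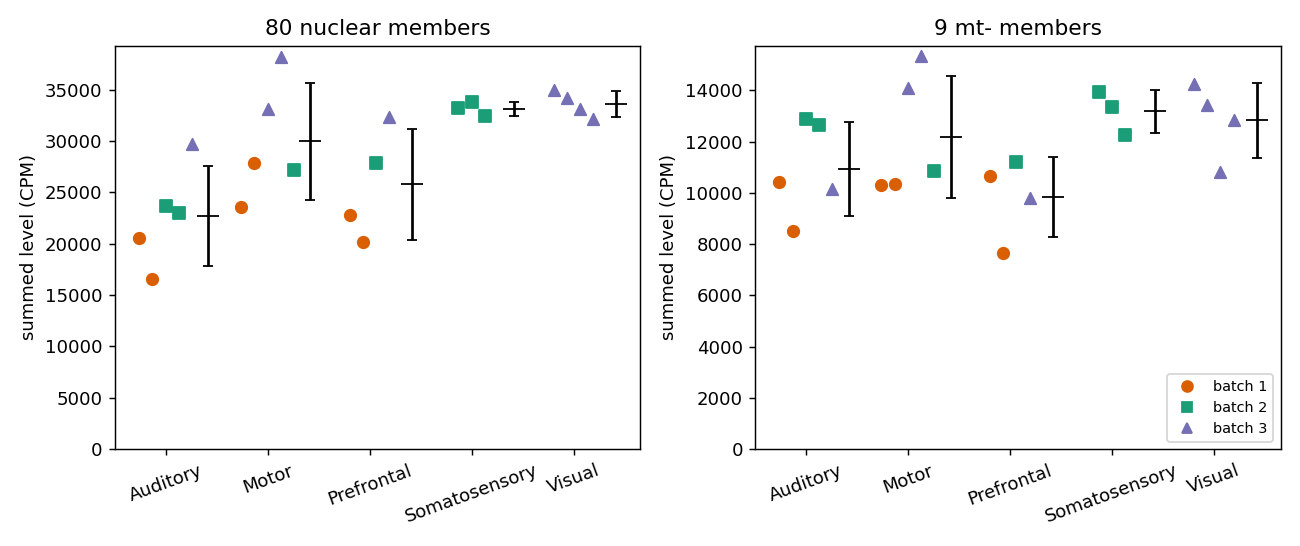
Summed level of the nuclear members (left) and of the mt- members (right) in CPM for each system. Each point is 1 animal, shape and colour give the sequencing batch, and the bar at the right of each system is the mean ± SD; in the left panel the auditory points lie lowest within batches 2 and 3, and in the right panel the systems overlap except for prefrontal and somatosensory.

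Within batches, the auditory sums stood at 16568 to 20519 CPM against 20147 to 27902 for the others in batch 1, at 22973 to 23711 against 27218 to 33807 in batch 2, and at 29757, in 1 animal, against 32150 to 38186 in batch 3. The auditory sums were thus below all others in batches 2 and 3 and overlapped with them in batch 1. Single cells gave the same order at the low end: the median cell had 19630 CPM of nuclear members in auditory neurons, 23010 in prefrontal, 24237 in motor, 28331 in somatosensory and 31844 in visual neurons.

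By complex, the auditory mean was the lowest of the 5 systems for each of the 5 complexes. Complex I summed to 8142 ± 1761 CPM in auditory neurons (SD, n = 5), beside 9075 to 11982 for the means of the other systems. Complex III stood at 2058 ± 272 beside 2478 to 2947, complex IV at 4265 ± 1704 beside 4593 to 7441 and complex V at 7322 ± 1120 beside 8606 to 11185. Complex II, which links the chain with the citric acid cycle, stood at 852 ± 69.3 beside 914 to 964.

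A test of any difference among the 5 systems, with sequencing batch as a covariate (edgeR quasi-likelihood F test, Benjamini-Hochberg adjusted p under 0.05 over 17211 genes), called 23 of 78 nuclear members (29.5%), where 12.6% of all genes were called. When each system was set against the mean of the other 4, 25 of 78 nuclear members were lower in auditory neurons (32.1%) and 0 were higher, where 3.69% of all genes were called lower and 4.28% higher. The median log2 fold change of the 78 was -0.36, beside -0.01 for all genes. By complex, the calls were 10 of 35 in complex I, 0 of 4 in complex II, 3 of 9 in complex III, 4 of 13 in complex IV and 8 of 15 in complex V. The calls came from short and long transcripts: 5 of 30 members of under 700 bases, 10 of 22, 7 of 18 and 3 of 7 in the longer classes, with medians of -0.34, -0.39, -0.34 and -0.33. Of all genes in the same 4 length classes, 15 of 1245, 69 of 1576, 125 of 2882 and 416 of 10972 were lower. Without batch 2, which held 2 of the 5 auditory animals and all somatosensory ones, 3 of 78 were lower, Atp5b, Cyc1 and Ndufa8, with a median of -0.29; without batch 1 and without batch 3 the counts were 27 and 21. Spike-in RNA, whose share rises as a cell gives less RNA of its own, made up 7.95 to 10.2% of UMIs in auditory sums. It made up 7.31 to 9.76% in visual sums and 3.54 to 8.45% in those of the other systems. The part of RNA amount in the result was not tested.

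**Figure D3:**
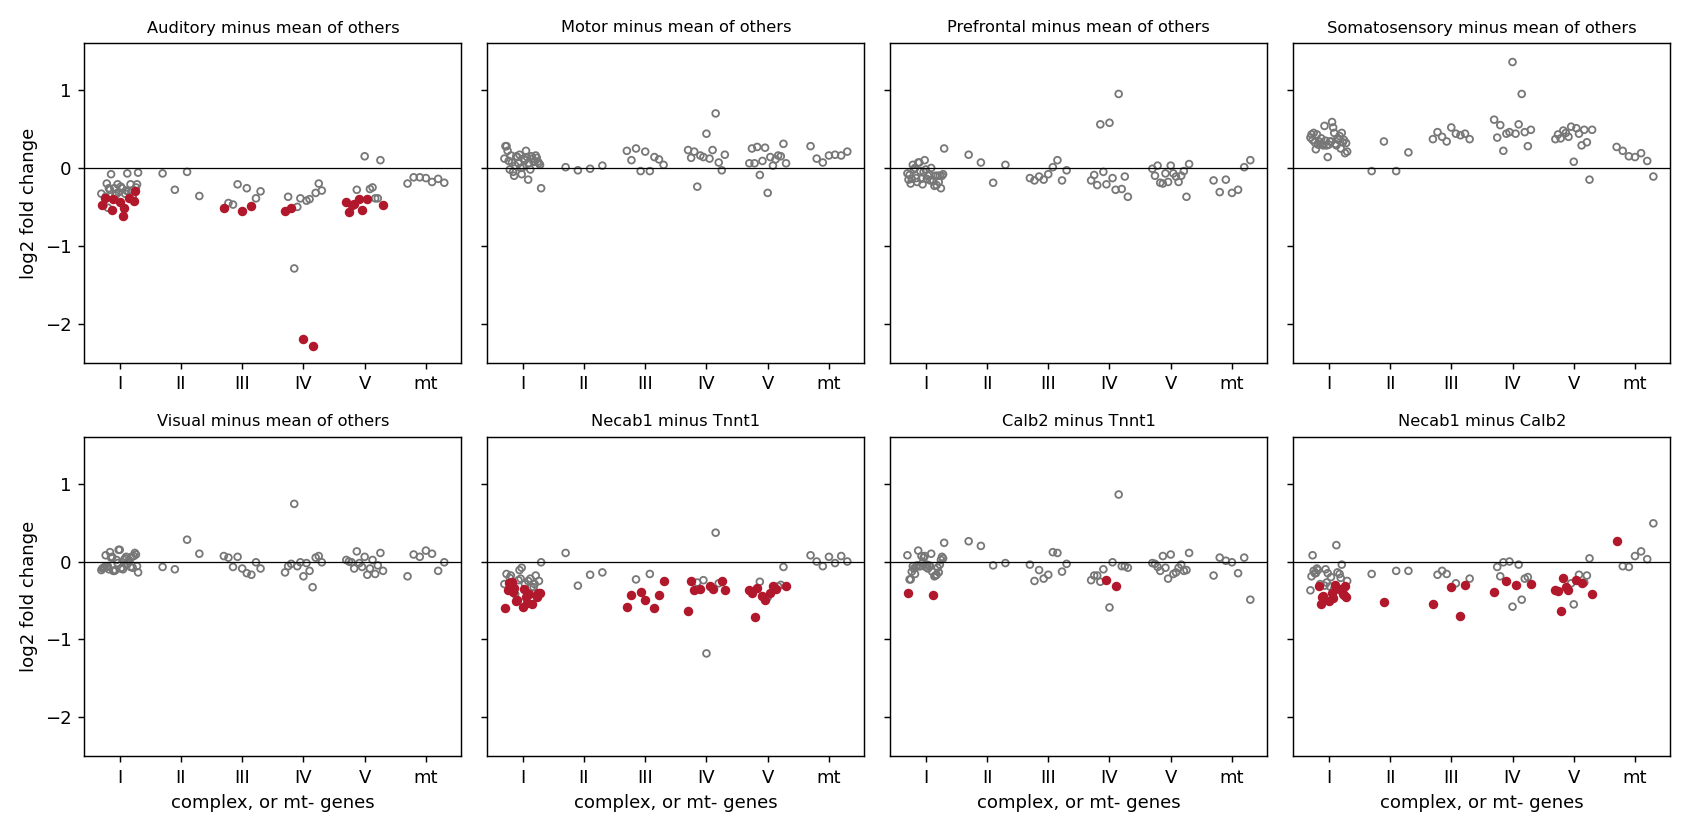
Log2 fold change of each tested member in 8 comparisons, 5 of a system against the mean of the other 4 and 3 between classes of cells. The horizontal axis groups members by complex with the mt- genes last, filled red points passed the adjusted p under 0.05 and open grey points did not; mt-Nd3, Atp5s and Atp5sl are not drawn. In the auditory panel the filled points are all below 0 and none is in complex II or among the mt- genes.

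Atp5b, which carries the catalytic sites of the ATP synthase, separated auditory neurons from every other animal. Its level was 719, 888, 825, 879 and 828 CPM in the 5 auditory animals. It was 1460, 1367, 1221, 1347 and 1029 CPM in motor, 895, 1243, 1008 and 1132 in prefrontal, 1120, 1413 and 1307 in somatosensory and 1160, 1148, 1126 and 1115 in visual neurons. The highest auditory value, 888 CPM, lies just below the lowest of the other 16, 895 CPM in prefrontal replicate 1, and Atp5b was the only one of the 78 nuclear members whose auditory animals all lay below all others (1 of 78, where 0.116% of all genes did so). The fitted log2 fold change was -0.57 ± 0.09 (SE), with an edgeR adjusted p of 0.00025. Because all auditory values lay below all others, the groups could not overlap within a batch either, which is no separate result. The gene lies at chr10:128083273-128090391 on the plus strand of mm10, the build named in the submitters' processing notes (position from GENCODE vM21).

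Other ATP synthase subunits were lower as well. Atp5o, which joins the catalytic head to the peripheral stalk, had 527, 435, 529, 559 and 613 CPM in auditory animals and 592 to 865 CPM in the others, so that auditory replicate 5 lay above motor replicate 1. Its fitted difference was -0.48 ± 0.08 (edgeR adjusted p 0.00039). Atp5a1, the alpha subunit of the head, differed by -0.44 ± 0.08, Atp5c1, the gamma subunit of the rotor shaft, by -0.47 ± 0.11 and Atp5d, the delta subunit at its foot, by -0.46 ± 0.09. Atp5f1, a stalk subunit, differed by -0.40 ± 0.08. Atp5k, in the membrane part (-0.39 ± 0.19), and Atp5e, of the central stalk (-0.28 ± 0.19), had negative folds with wider errors and did not pass the test.

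In complex I, Ndufa8, a supernumerary subunit with cysteine motifs, had 160, 169, 205, 217 and 223 CPM in auditory animals. It had 222 to 281 CPM in motor, 249 to 282 in prefrontal, 302 to 326 in somatosensory and 253 to 279 in visual animals. A single motor animal (replicate 3, 222 CPM) fell below the highest auditory animal, and the fitted difference was -0.54 ± 0.09 (edgeR adjusted p 0.0005). Ndufb8, a membrane arm subunit, differed by -0.62 ± 0.13 and Ndufa10 by -0.47 ± 0.10. Ndufs7, which holds the last iron-sulfur cluster before ubiquinone, differed by -0.43 ± 0.09. Ndufs1, the largest subunit of the electron input part, had -0.07 ± 0.10 and Ndufv1, which binds NADH, -0.25 ± 0.09, neither called.

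In complexes III and IV, the members called were catalytic and structural ones. Cyc1, cytochrome c1, had 331, 366, 310, 424 and 345 CPM in auditory animals and 329 to 598 CPM in the others, whose lowest value was prefrontal replicate 1. Its difference was -0.52 ± 0.11 (edgeR adjusted p 0.0042), and those of Uqcrc1 and Uqcrfs1, the Rieske iron-sulfur protein, were -0.55 ± 0.12 and -0.49 ± 0.11. Cox5a, a structural subunit of cytochrome c oxidase, had 522, 342, 809, 753 and 842 CPM in auditory animals. It had 517 to 1376 CPM in the others, and 342 to 912 CPM over all 6 sums of batch 1, and the fitted difference was -0.55 ± 0.11 (edgeR adjusted p 0.0025). Within batches 2 and 3, its auditory values were all below those of the other systems.

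Complex II had no call in any system. The level of Sdha was 334, 358, 397, 353 and 373 CPM in auditory animals and 342 to 440 CPM in all others. The ranges overlap almost fully, with a fitted difference of -0.07 ± 0.07 (edgeR adjusted p 0.62). Sdhb, the iron-sulfur subunit, had -0.28 ± 0.09 (adjusted p 0.061) and Sdhc and Sdhd, its membrane anchors, had -0.05 ± 0.11 and -0.36 ± 0.14. Whether the complexes differ from each other was not tested.

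The other systems gave no call in edgeR for a nuclear member. In motor neurons 0 of 78 passed (6 at an unadjusted p under 0.05, 0 in DESeq2), where 2.32% of all genes were called higher and 1.59% lower; the median was 0.10. In prefrontal neurons 0 passed (5 unadjusted, 1 lower in DESeq2), where 5.19% were called higher and 3.97% lower; the median was -0.10. In somatosensory neurons 0 passed, yet 35 of 78 had an unadjusted p under 0.05 and DESeq2 called 4 higher; the median was 0.38, and edgeR called 0.0349% of all genes higher and 0.198% lower there. In visual neurons 0 passed (0 unadjusted, 0 in DESeq2), where 0.0465% of all genes were called higher and 0.0988% lower, and the median was -0.03. The 5 contrasts share their samples, so a lower auditory level also raises the fold of each other system.

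Members of complexes IV and V came nearest to the threshold in somatosensory neurons. Atp5o had 862, 865 and 807 CPM there and a fold of 0.49 ± 0.11 (edgeR adjusted p 0.073), and Cox5a had 1265, 1376 and 1256 CPM and a fold of 0.62 ± 0.16 (adjusted p 0.11). Cox5a was above 1200 CPM in 4 animals only, the 3 somatosensory ones and motor replicate 4 (1330 CPM). Visual neurons, all in batch 3, had high levels in CPM and folds near 0. Within that batch the nuclear members averaged 33605 CPM in the 4 visual animals and 33347 CPM in the 4 others, whose range of 29757 to 38186 CPM holds all visual values.

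No mt- member was called between systems. The mt- members summed to 10932 ± 1844 CPM in auditory (SD, n = 5), 12190 ± 2372 in motor (n = 5), 9842 ± 1560 in prefrontal (n = 4), 13181 ± 847 in somatosensory (n = 3) and 12838 ± 1463 in visual neurons (n = 4), with ranges that overlap between all systems but prefrontal and somatosensory. In batch 2 the auditory animals (12668 and 12902 CPM) lay within the range of the others (10848 to 13929 CPM). For any difference among the systems edgeR called 0 of 8 tested mt- members (2 at an unadjusted p under 0.05, 1 in DESeq2), and 3 when cells were thinned to equal depth. All 8 auditory folds were below 0, with a median of -0.16. The 8 include mt-Nd3, which had few UMIs (below).

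mt-Cytb, cytochrome b of complex III, was the most abundant member of either genome, at 5957 CPM over all cells, ahead of mt-Nd1 of complex I at 3117. mt-Cytb had 4845, 3514, 7738, 6755 and 5585 CPM in auditory animals, beside 2848 to 8569 in the others, and a fold of -0.12 ± 0.11 (edgeR adjusted p 0.63). mt-Nd1 had -0.12 ± 0.09, mt-Nd2 -0.13 ± 0.12, mt-Nd4 -0.18 ± 0.10, mt-Nd5 -0.14 ± 0.13 and mt-Nd6 -0.19 ± 0.30, all core subunits of complex I. mt-Co1, the core subunit of complex IV, came closest, with an adjusted p of 0.052 for any difference and -0.20 ± 0.10 in auditory neurons; it stood at 608 to 944 CPM in the 6 sums of batch 1 and at 290 to 464 CPM in the 15 later ones. mt-Nd3 had 0 UMIs in 778 cells of batch 2, which allows at most 0.0365 CPM, but 111 UMIs in batch 1 and 274 in batch 3, and mt-Atp6 had 3 UMIs in 1 cell; no fold is given for them.

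Several complex IV subunits have a second isoform that is best known from muscle or testis. Cox6a2, the heart and muscle form of Cox6a, was found in 60.4% of the thalamic neurons, at 33, 26.5, 13.6, 19.1 and 40.5 CPM in auditory animals. In visual animals it had 178, 211, 133 and 180 CPM, above every auditory value, and in motor animals it ran from 8.78 and 11.4 CPM in batch 1 to 180 CPM in batch 3. Its share of Cox6a UMIs was 8.74 ± 4.44% in auditory (SD, n = 5) and 12.1 ± 9.21% in motor animals (n = 5). It was 18.3 ± 2.13% for prefrontal (n = 4), 11.2 ± 2.18% for somatosensory (n = 3) and 24.4 ± 2.75% for visual animals (n = 4). The auditory fold of Cox6a2 was -1.29 ± 0.45 and did not pass (edgeR adjusted p 0.091), while Cox6a1, the form of most tissues, was called at -0.52 ± 0.15.

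Cox7a1 and Cox7b2, the rare forms of Cox7a and Cox7b, had the largest auditory folds, -2.20 ± 0.63 (edgeR adjusted p 0.033) and -2.29 ± 0.59 (adjusted p 0.019), from few molecules. Cox7a1 had 1, 3, 4, 2 and 13 UMIs in the auditory sums and 8 to 107 in the others; Cox7b2 had 8, 10, 4, 0 and 12 UMIs and 10 to 179 in the others. Cox7a1 UMIs were found in 3.16% of auditory cells, beside 8.74 to 15.8% in the other systems. Ubiquitous Cox7a2 and Cox7b had -0.42 ± 0.14 and -0.40 ± 0.15, neither called. Among the 3 genes for the c subunit of the ATP synthase rotor, Atp5g3 gave 69.2 to 72.0% of UMIs in the mean of every system and Atp5g2 0.567 to 1.65%. Cox6b2 (28 UMIs) and Cox8c (1 UMI), best known from testis, were too rare to test.

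Sequence near the starts of the members was not used by the name rule. Of the 80 nuclear members, 67 had a promoter in the RefSeq table (build GRCm38.p6, 300 bases from 250 before to 50 after the start). The NRF1 motif (GCGCA, any base, then GCGC), the palindrome of a regulator of nuclear respiratory genes, was found on either strand in 17 of 67 (25.4%), beside 5.19% of 27025 genes. The ETS motif CCGGAAG, read by GABPA, was found in 23.9% beside 9.93%, the YY1 motif AAGATGGCG in 11.9% beside 1.64% and the ERR motif AAGGTCA in 11.9% beside 5.38%; no motif contains another, on either strand. Among the 22 auditory-called members with a promoter, 6 held the NRF1 motif, and a match is a description of letters, not of binding.

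The promoters below are shown for 4 members whose levels were described above, in lower case with motif matches in capitals. Uqcrc1 at chr9:108936398-108936697 (plus strand) has 2 NRF1 matches beside its start, and Cox6a1 at chr5:115348909-115349208 (minus strand) has 2 NRF1 matches and an ETS match. Sdha at chr13:74350191-74350490 (minus strand), whose auditory fold was -0.07, has 3 NRF1 matches, and Atp5b at chr10:128083057-128083356 (plus strand), the clearest auditory member, has no match of the 4 motifs in this window.
Uqcrc1: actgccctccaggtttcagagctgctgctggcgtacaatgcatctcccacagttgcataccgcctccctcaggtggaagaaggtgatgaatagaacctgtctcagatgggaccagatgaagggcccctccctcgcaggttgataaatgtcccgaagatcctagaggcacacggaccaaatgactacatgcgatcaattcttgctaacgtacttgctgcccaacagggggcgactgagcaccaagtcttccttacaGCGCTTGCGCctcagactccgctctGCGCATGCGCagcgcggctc
Cox6a1: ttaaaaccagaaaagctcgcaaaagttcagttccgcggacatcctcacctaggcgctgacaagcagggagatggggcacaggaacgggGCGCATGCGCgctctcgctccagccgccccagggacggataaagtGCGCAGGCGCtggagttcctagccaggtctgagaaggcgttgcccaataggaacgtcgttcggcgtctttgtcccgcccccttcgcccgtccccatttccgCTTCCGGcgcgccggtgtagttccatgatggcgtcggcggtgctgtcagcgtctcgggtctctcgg
Sdha: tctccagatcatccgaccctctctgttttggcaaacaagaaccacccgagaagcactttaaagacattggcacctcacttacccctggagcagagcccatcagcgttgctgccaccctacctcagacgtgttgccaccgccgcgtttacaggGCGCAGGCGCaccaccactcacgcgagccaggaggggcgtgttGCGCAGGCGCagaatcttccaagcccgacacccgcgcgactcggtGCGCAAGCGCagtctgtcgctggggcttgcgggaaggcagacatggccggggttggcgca
Atp5b: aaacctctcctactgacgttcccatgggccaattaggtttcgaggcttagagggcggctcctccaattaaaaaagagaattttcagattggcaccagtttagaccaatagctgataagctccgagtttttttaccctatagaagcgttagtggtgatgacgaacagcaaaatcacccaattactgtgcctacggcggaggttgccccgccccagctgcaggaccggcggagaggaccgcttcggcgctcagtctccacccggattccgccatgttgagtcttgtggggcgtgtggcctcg

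The second comparison set cells by an anchor gene within each animal. Calb2, Necab1 and Tnnt1 are genes that label different kinds of thalamic projection neuron, and a cell's class is the one of them with its highest level; none is a member. This gave 611 Calb2, 532 Necab1 and 756 Tnnt1 cells, in 57 sums of at least 5 cells (18 Calb2, 20 Necab1 and 19 Tnnt1). Classes were compared with the animal and system as a block, so that differences between batches cancel. The nuclear members summed to 28131 ± 6180 CPM in Calb2 sums (lowest 16334, median 28930, highest 36699), 24135 ± 6460 in Necab1 sums (12373, 25353 and 33835) and 30410 ± 5996 in Tnnt1 sums (18634, 32859 and 38169). The ranges overlap across animals, but within an animal Necab1 cells were below Tnnt1 cells in 18 of 19 and below Calb2 cells in 18 of 18.

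**Figure D4:**
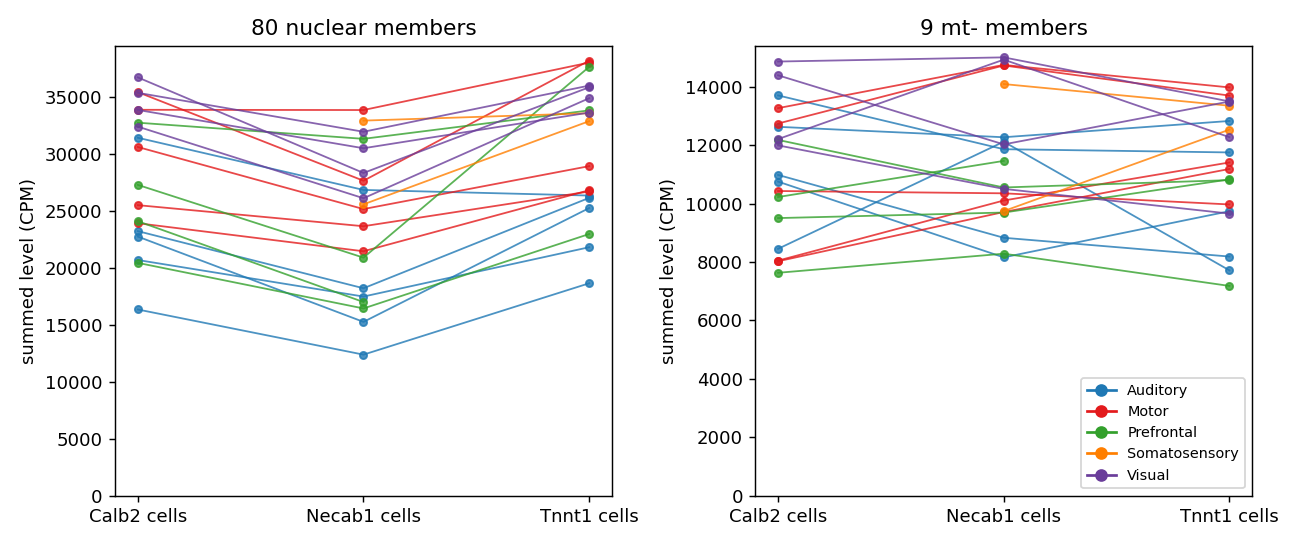
Summed level of the nuclear members (left) and the mt- members (right) in CPM for cells of the Calb2, Necab1 and Tnnt1 classes. Each point is the sum of 1 animal and class, lines join the classes of 1 animal and colour gives the system; on the left the lines dip at Necab1 in nearly every animal, on the right they do not.

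Of the 78 nuclear members, 42 were lower in Necab1 than in Tnnt1 cells (53.8%) and 0 were higher (edgeR, adjusted p under 0.05), where 2.01% of all genes were called lower and 1.85% higher. The median log2 fold change was -0.32, beside -0.02 for all genes. The calls were 17 of 35 in complex I, 0 of 4 in complex II, 7 of 9 in complex III, 8 of 13 in complex IV and 10 of 15 in complex V. Median UMIs per cell were also lower in Necab1 than in Tnnt1 cells in 16 of 19 animals (median log2 -0.278), and with every cell thinned to 20000 UMIs, 28 members were lower.

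Atp5c1, the rotor shaft subunit, had 179, 512 and 685 CPM in Necab1 sums (lowest, median and highest of 20) and 442, 779 and 1167 CPM in Tnnt1 sums (of 19). The classes overlap across animals, but Necab1 cells were lower in 18 of 19 animals, and the fold was -0.71 ± 0.10 (edgeR adjusted p 4.2e-06). Cox5a had 151, 672 and 1143 CPM beside 460, 1046 and 1477 CPM, lower in 17 of 19 animals, with a fold of -0.63 ± 0.09 (adjusted p 4.2e-06). Ndufa10 had 215, 513 and 872 CPM beside 552, 737 and 1146 CPM and was lower in 19 of 19 animals, at -0.60 ± 0.09. Cyc1 differed by -0.58 ± 0.09, Uqcrfs1 by -0.60 ± 0.14 and Ndufb10 by -0.50 ± 0.07. Sdha, at 260, 365 and 479 CPM beside 179, 340 and 463 CPM, was lower in 8 of 19 animals and had a fold of 0.11 ± 0.09, not called.

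Calb2 cells differed less from Tnnt1 cells than Necab1 cells did. Within an animal their nuclear sum was below that of Tnnt1 cells in 13 of 17 (median log2 -0.107). Their complex IV sum was below it in 16 of 17 (median -0.147) and their complex II sum in 4 of 17 (median 0.13). In Calb2 cells 4 of 78 nuclear members were lower (5.13%) and 0 were higher, where 4.19% of all genes were lower and 5.44% higher. The share is near that of all genes, and the median was -0.07. The 4 were Ndufa10 (-0.41 ± 0.09), Ndufs1 (-0.43 ± 0.12), Cox6c (-0.24 ± 0.08) and Cox7b (-0.31 ± 0.08). Against Calb2 cells, 31 of 78 were lower in Necab1 cells (39.7%) and 0 higher, where 5.23% of all genes were lower and 3.41% higher, in a contrast added after seeing the data. It shares its Necab1 sums with the first contrast. Sdhb, at 68.3, 252 and 426 CPM in Necab1 and 260, 341 and 485 CPM in Calb2 sums, was the only complex II member called there, at -0.52 ± 0.11.

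The mt- members did not show the dip at Necab1. They summed to 11224 ± 2251 CPM in Calb2, 11459 ± 2253 in Necab1 and 11268 ± 2090 in Tnnt1 sums, and Necab1 cells were below Tnnt1 cells in 8 of 19 animals. edgeR called 0 of 8 between Necab1 and Tnnt1 cells (0 unadjusted) and 0 between Calb2 and Tnnt1 cells (2 unadjusted, 0 in DESeq2). Between Necab1 and Calb2 cells, mt-Co1 alone was called, and it was higher in Necab1 cells, at 0.26 ± 0.07 (edgeR adjusted p 0.013). Of the 8 tested mt- members, with the rare mt-Nd3 counted, 8 had auditory folds below 0 and 3 had Necab1 minus Tnnt1 folds below 0.

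The auditory and the Necab1 results name many of the same members. Of the 25 lower in auditory neurons, 22 were also lower in Necab1 than in Tnnt1 cells, which is 88.0% of the first list and 52.4% of the second. Of all 78 nuclear members, 42 (53.8%) were lower in Necab1 cells, so many would be shared in any case. The overlap was not counted over all genes, and whether it exceeds that share was not tested. Both were drawn from the same animals' cells, though auditory neurons were mostly of the Calb2 class (62.6%) and only 12.9% of the Necab1 class. When systems were compared within 1 class, an alternative added after seeing the data, auditory neurons had 12 of 77 members lower among Necab1 cells (45 unadjusted), 14 of 78 among Tnnt1 cells (45 unadjusted) and 1 of 78 among Calb2 cells (17 unadjusted). Of all genes, 1.26%, 1.33% and 0.223% were lower there. Medians of the members were -0.47, -0.41 and -0.22, beside -0.14, -0.07 and 0.05 for all genes. Atp5b had auditory folds of -0.72 ± 0.13 among Necab1, -0.77 ± 0.15 among Tnnt1 and -0.54 ± 0.13 among Calb2 cells (edgeR adjusted p 0.0042, 0.0087 and 0.056).

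Somatosensory neurons were 80% Tnnt1 cells, and among Tnnt1 cells alone their nuclear members had a median fold of 0.14, with 0 of 78 called and 0 at an unadjusted p under 0.05. Among Necab1 cells alone the median was 0.63, with 0 of 77 called and 31 at an unadjusted p under 0.05. This value rests on 2 somatosensory sums, of 14 and 18 cells, with 32906 and 25561 CPM of nuclear members. Over all cells the median of the members was 0.38, and medians of all genes were -0.02 in the Tnnt1 and -0.05 in the Necab1 fit.

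The levels also spanned a wide range over the joint clusters. These were made by the authors from the same genes, so their levels are a description with no test. Joint cluster 1 (174 cells, mostly motor and somatosensory, 82.8% of the Tnnt1 class) had a median of 40821 CPM of nuclear members over 8 animals (33518 to 52082). Joint cluster 2 (312 cells, again mostly motor and somatosensory and 80.4% Tnnt1 cells) had 22962 CPM (13034 to 26637), below every animal of joint cluster 1. The 2 clusters have nearly the same share of Tnnt1 cells and share no nuclear value. Within batch 2, cluster 1 had 33518 to 49008 CPM (6 sums) and cluster 2 20260 to 26637 CPM (5 sums), and within batch 3 they had 46657 to 52082 and 24377 to 25048 CPM (2 sums each). Joint clusters 3 and 6, mostly visual neurons, had 34084 and 33877 CPM, and joint cluster 4, mostly motor, 29621 CPM. Joint clusters 8 and 5, mostly auditory, had 25593 and 20325 CPM, and 7 and 9, mostly or all prefrontal, 24596 and 21832 CPM. Clusters 3 and 6 had sums from batch 3 only and cluster 9 had 2 sums, both from batch 1, so for these 3 the cluster and the batch cannot be told apart.

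**Figure D5:**
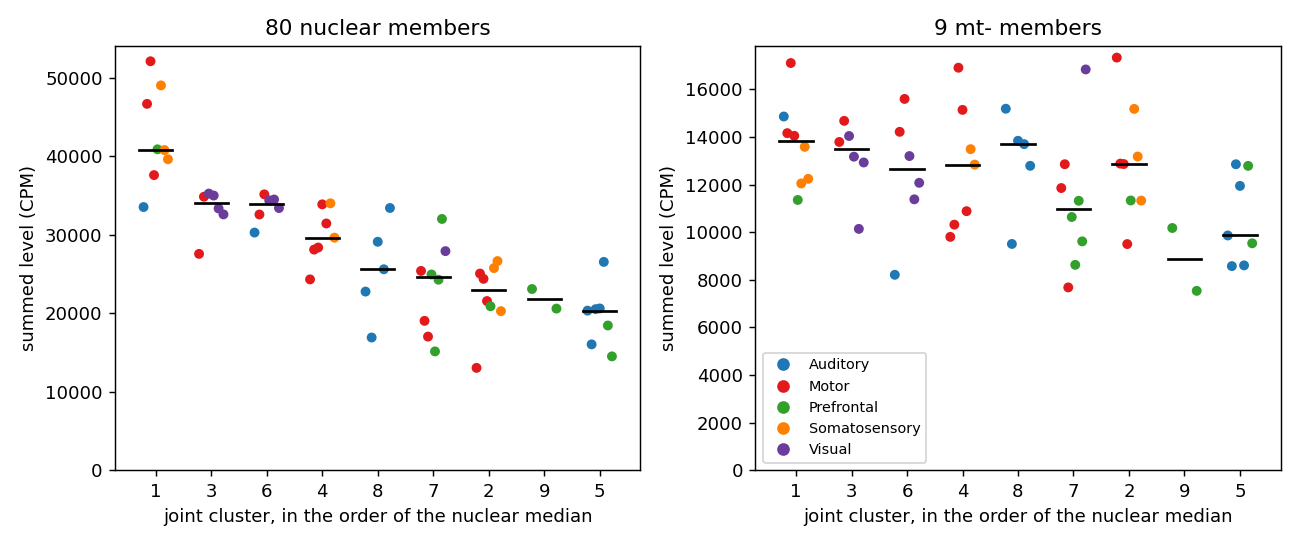
Summed level of the nuclear members (left) and the mt- members (right) in CPM for each joint cluster, ordered by the nuclear median. Each point is 1 animal with at least 5 cells in the cluster, colour gives the system and the bar is the median; the nuclear median runs from 40821 down to 20325 CPM, while the mt- medians lie between 8859 and 13821 CPM in another order.

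Neighbours in that order overlap in every case, and joint cluster 1 lies above clusters 2, 5, 7, 8 and 9 with no shared value. Median UMIs per cell were 149294 in joint cluster 1, 79119 in joint cluster 2, 145694 in cluster 4 and 141135 in cluster 9; the part of depth in these levels was not tested. Within systems, Som_1, Mot_1 and Pfr_1 had the highest medians, 40491, 39737 and 39517 CPM, and Pfr_2 and Aud_2 the lowest, 18778 and 19006 CPM. Aud_1, of which 74.3% were Tnnt1 cells, had 24284 CPM.

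The order of Cox6a2 differed from that of the nuclear sum. Its median by joint cluster was 189 CPM in cluster 3, 137 in 6, 132 in 7, 114 in 2 and 70.2 in 1, but 6.82 in cluster 4 and 0 in cluster 8. Cluster 4 had Cox6a2 UMIs in 19.8% of its cells and Cox6a1 UMIs in 99.6%. Cluster 2 had a Cox6a2 level above that of cluster 1 in median and the lower nuclear sum.

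Genes that work beside the chain were counted from lists chosen with earlier results of these data known. The counts in auditory neurons stand beside 3.69% of all genes lower and 4.28% higher. Of 7 tested subunits outside the name rule, 3 were lower in auditory neurons: Cycs, cytochrome c itself (-0.59 ± 0.10), Cox4i1, a complex IV subunit (-0.45 ± 0.10), and Ndufab1, the acyl carrier protein (-0.40 ± 0.10). Of 17 citric acid cycle and pyruvate dehydrogenase genes, 5 were lower and 0 higher, among them Idh3a and Idh3b of isocitrate dehydrogenase, and of 16 outer membrane and carrier genes 7 were lower and 0 higher, with Mpc2, of the pyruvate carrier, at -0.71 ± 0.12 and Slc25a4, the ADP/ATP exchanger, at -0.43 ± 0.10. Of 77 mitochondrial ribosome genes 7 were lower and 0 higher (9.09%), and of 47 assembly factors 4 were lower and 1, Coa4, higher. In motor neurons 4 of 17 citric acid cycle genes were higher (23.5%, beside 2.32% of all genes), among them Ogdh and Dlst of the oxoglutarate dehydrogenase complex, at 0.42 ± 0.07 and 0.40 ± 0.11.

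Of 20 regulators of mitochondrial genes, 1 was lower in auditory neurons (5%, beside 3.69% of all genes), 1 lower in prefrontal neurons (5% beside 3.97%) and 2 higher in motor neurons (10% beside 2.32%), so the shares in auditory and prefrontal neurons are near those of all genes. Ppargc1a, a coactivator of mitochondrial gene programmes, had 62.1 ± 18.7 CPM in auditory (SD, n = 5), 108 ± 16.7 in motor (n = 5), 60.8 ± 10.2 in prefrontal (n = 4), 105 ± 23.5 in somatosensory (n = 3) and 66.6 ± 6.51 in visual neurons (n = 4). It was lower in auditory neurons (-0.54 ± 0.16, edgeR adjusted p 0.041) and higher in motor neurons (0.56 ± 0.15, adjusted p 0.031). Esrra, a nuclear receptor it works with, was higher in motor (0.94 ± 0.18) and lower in prefrontal neurons (-0.74 ± 0.22). Between classes, both were lower in Calb2 than in Tnnt1 cells, Ppargc1a by -1.44 ± 0.25 and Esrra by -1.21 ± 0.20. Of the 20 regulators, 2 were called lower there (10%, beside 4.19% of all genes). Neither gene was called between Necab1 and Tnnt1 cells. Whether the regulators bear on the levels of the members was not tested. Of the 20, 0 were called between Necab1 and Tnnt1 cells (edgeR, 2 at an unadjusted p under 0.05).

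Markers of other cell types were also measured in auditory neurons. Of the GABA neuron markers, Gad1, a GABA-making enzyme, had 2 UMIs and Slc32a1, the vesicular GABA transporter, 0 UMIs in auditory cells. Gad2, the other GABA-making enzyme, ran from 0 to 21.3 CPM in auditory sums and from 2.66 to 17.05 CPM in prefrontal ones. Astrocyte markers were at 285 to 487 CPM in auditory sums (median 474) and 374 to 491 CPM in visual sums (median 399). In the sums of the other systems they were at 513.5 to 917 CPM. Between classes, oligodendrocyte markers summed to 18.2 to 1747 CPM in Necab1 sums (median 75.8) and 11.95 to 624.6 in Tnnt1 sums (median 34.9). All 10 had folds above 0 in Necab1 against Tnnt1 cells, with a median of 1.54, and 1 was called higher; none was at 0 in either class. In Calb2 sums they had 31.8 to 2095 CPM. Astrocyte markers summed to 364 to 1021 CPM in Necab1, 383 to 948 in Tnnt1 and 184.5 to 901 in Calb2 sums. Of 4 tested, 1 was higher and 1 lower in Necab1 than in Tnnt1 cells, and 2 were higher than in Calb2 cells, with Gfap and S1pr1 at 0 in Necab1 cells. Neuron markers had 4 of 7 higher and 1 lower in Necab1 than in Calb2 cells. Gad2 had 46 UMIs in Necab1, 2 in Tnnt1 and 478 in Calb2 sums. The part of these markers in the class results was tested only by leaving cells out. Without the 157 cells that held 3 or more markers of another type, 30 nuclear members were lower in auditory neurons and 35 in Necab1 against Tnnt1 cells.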

How the data were processed

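Single fluorescent thalamic neurons were made into 3' UMI libraries with spike-ins on 26 plates, per the labels' protocols. The authors deposited counts, raw UMI counts per gene and cell on build mm10, and a cell table; their reads went through cutadapt 1.16, Picard 1.12 and STAR 2.5.3, per the submitters' processing notes. No source used here gives the annotation or the counting rule, and members with near-identical copies may share UMIs. Plates are the deposited samples, and the sequencing batch of each plate came from the sample labels. Systems, animals and clusters came from the cell table.

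Counts without spike-ins were summed per animal and system (at least 10 cells) or per animal, system and class (at least 5 cells; 73 cells had no class). No cell was left out and no doublet caller was run, since cells were picked by hand. Cells held 20509 to 683775 UMIs (median 87292). The test across genes was that of edgeR 4.0.16 under R 4.3.3 (TMM, filterByExpr, trended dispersion, glmQLFit and glmQLFTest, Benjamini-Hochberg at 0.05 over all genes). Systems had a batch covariate (14 residual degrees of freedom) and classes an animal-by-system block. Fits were tested on simulated data first. Alternatives were DESeq2 1.42.0, other filters, dispersions and depths, and left-out batches and animals; class-only fits and the Necab1 minus Calb2 contrast were added after seeing the data. Levels and figures were made with Python 3.11.15, numpy 2.4.6, scipy 1.17.1 and pandas 2.3.3. Transcript lengths and positions came from GENCODE vM21 and promoters from RefSeq; 13 nuclear members had none there.

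The members and lists were chosen with earlier results of these data known. Named members are the 10 largest calls in each direction per contrast, all mt- members, the isoform sets, and any member given with its values. Values of a few genes of the lists are not reported here.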

Additional observations from a re-analysis of the deposited data

Results flagged for a closer look

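The gap between neighbouring values was looked at in 124 groups of 4 or 5 animals. A group was a chosen named member, or a sum of members such as a complex, in 1 system. Somatosensory neurons, with 3 animals, were not looked at. In 9 groups 1 animal stood apart from the rest, and chance gives about 1 in 20 groups. Low values were Ndufb8 in visual replicate 4 (336.1 CPM), Cyc1 in prefrontal replicate 1 (329.2 CPM) and Atp5d in motor replicate 1 (1127 CPM). High values were Sdha in motor replicate 4 (437.8 CPM), Cox5a in visual replicate 1 (1105 CPM), Cox7a1 in auditory replicate 5 (3.011 CPM, from 13 UMIs), Cox7b2 in prefrontal replicate 3 (8.808 CPM), Atp5g2 in motor replicate 2 (20.29 CPM) and mt-Nd2 in prefrontal replicate 1 (670.6 CPM). Without the single animals, 20 to 31 nuclear members were lower in auditory neurons.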

How the results depend on the processing

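No alternative turned the sign of a called member. Apart from the fits within 1 class, the share of all genes called in an alternative is not given here or above. The counts of alternatives therefore show only how the calls moved between settings. With the same data and other settings, 25 nuclear members lower in auditory neurons became 20 to 31 when single animals were left out, and 42 lower in Necab1 than in Tnnt1 cells became 28 to 45 over all alternatives run. With no filter on low counts the calls were 43 for any difference among systems, 42 in auditory, 1 in motor, 2 in prefrontal, 1 in visual and 10 in somatosensory neurons, and 3 mt- members. Without batch 2 they were 5 for any difference, 3 in auditory and 6 in motor neurons and 1 mt- member, and without batch 1 they were 11 in somatosensory neurons and 1 mt- member; the cause was not tested. DESeq2 gave 1 in prefrontal and 4 in somatosensory neurons, 1 mt- member, and 7 between Calb2 and Tnnt1 cells. Without a batch term 4 passed in somatosensory neurons; with sums per sort date, 1 in prefrontal neurons and 1 mt- member. Among the mt- members, 3 passed with cells thinned, 1 with 1 dispersion for all genes and 1 without the cells the authors marked. Cells of 1 class alone, added after seeing the data, gave 3 (Calb2), 5 (Necab1) and 2 (Tnnt1) for any difference, and 1, 12 and 14 in auditory neurons. Between Calb2 and Tnnt1 cells (4 in the reported fit), 2 passed with no replicate block, 2 with sums of at least 10 cells and 2 without prefrontal neurons; 1 mt- member passed without auditory neurons. Between Necab1 and Calb2 cells (31), 19 passed without auditory, 20 without prefrontal and 18 without visual neurons. Leaving out single animals gave 18 to 28 for any difference, 0 to 1 in motor, 0 to 1 in prefrontal, 0 to 3 in somatosensory and 0 to 3 for mt- members; the 3 came without motor replicate 2 and without prefrontal replicate 1. Motor calls came without motor replicate 3 or 5, and the prefrontal call without auditory replicate 2. Of the auditory calls, Atp5b and Cyc1 were kept in 36 of 37 alternatives, all but Calb2 cells alone, Ndufa8 in 35 and Ndufs8 in 14. Cox7a1 and Cox7b2 rest on few UMIs, and at 0 to 13 UMIs per auditory sum smaller differences were not detectable.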
